A study of Mus musculus and Rattus norvegicus with 80 samples.

Results

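UID-9761, UID-59, UID-6930 and UID-8317 are 4 full-length L1 loci of the mouse genome (mm10) that collected many reads over nearly the whole counting window in testes of 7.6 mo mice, yet are on none of the study's curated lists of expressed L1 loci. They were chosen on that basis from 17019 annotated loci. The reads and window coverage of the 3 testes of 7.6 mo are therefore given as a description only, and every test rests on other libraries. Reads of polyadenylated cytoplasmic RNA had been counted over each L1 in the sense orientation in 68 libraries from 21 C57BL/6 mice, with no treatment or genetic change in the labels. The 12 male mice gave 12 testes (labelled as the reproductive organ of male mice, 3 at each of the ages 22.3, 12.8, 7.6 and 1.9-3.6 mo), 12 livers at the same ages, 6 brains (3 each at 7.6 and 12.8 mo) and 5 lungs (2 at 7.6 and 3 at 12.8 mo). The 9 female mice gave 9 ovaries, 9 brains and 9 lungs (3 at 2.2-3.2, 4 at 8-8.7 and 2 at 16.5 mo) and 6 uteri (1, 3 and 2 at these ages). Each library is 1 organ of 1 mouse, taken as a small dissected piece, so the cell types in a piece are not known, and the files hold L1 loci only and no marker genes to check the organ labels with. In such bulk samples, fewer cells of a type and less RNA per cell cannot be told apart.

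L1 elements are retrotransposons, which copy themselves through an RNA that is reverse transcribed into a new genomic site. A full-length element carries its own sense promoter in its 5' end and encodes an RNA-binding protein (ORF1p) and an endonuclease and reverse transcriptase (ORF2p). L1 sequence also ends up in RNA made from other promoters, since many copies lie in introns or downstream of genes and are transcribed along with them. Curation of L1 expression therefore looks at where the reads lie, because reads that run into the element from its upstream flank point to a start elsewhere. In the male germ line, L1 elements are held down by DNA methylation and by the piRNA pathway, and the testis is known for transcribing a large part of the genome.

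All 4 loci are on the study's list of full-length elements without intact reading frames. UID-9761 lies at chr16:12748429-12753261 on the minus strand, in an intron of 4930414F18Rik, a long intergenic noncoding RNA gene of the same strand. That intron is 31365 bp long, and the nearest exons of this gene are 12674 bp upstream and 13858 bp downstream of the L1. A processed pseudogene of the same strand, Gm6327, lies within the intron, 6771 bp upstream of the L1. UID-6930 lies at chr14:33614949-33619861 on the plus strand, in an intron of Ptpn20, which encodes a protein tyrosine phosphatase and is also transcribed from the plus strand. Its intron is only 7284 bp long, so that the L1 starts 382 bp after one exon and ends 1989 bp before the next. UID-59, also of the plus strand, is at chr2:23296915-23301901, between genes. The nearest genes on either side, the protein-coding 4931423N10Rik 29786 bp upstream and Nxph2 (a neurexophilin, a secreted ligand of neurexins) 19345 bp downstream, have the same orientation. UID-8317 is between genes too, at chr8:80516388-80521326 (plus strand). The noncoding gene 4930505O20Rik, on the minus strand, starts 1915 bp upstream and runs away from the L1. The annotated intervals, from which distances are counted, are 4833 to 4987 bp long. This is shorter than the length the paper gives for full-length, retrotransposition-competent mouse L1 elements. Within 20 kb, UID-59 has 1 other annotated full-length L1, UID-705 on the opposite strand, which held 0 to 6 reads in the 12 testes, and the other 3 loci have none.

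The counting window reached past each annotated interval. Whether the added bases belong to the element itself was not tested. For the 4 loci it added 700 bp upstream and 1000 bp downstream at all ages but 12.8 mo, for windows of 6533 to 6687 bp, and 300 bp and 500 bp at 12.8 mo, for windows of 5633 to 5787 bp. For UID-6930, the wider window holds a whole exon of Ptpn20, which the window of 12.8 mo does not. This exon is number 6 of the coding transcript, lies at chr14:33614433-33614566 (GRCm38, plus strand, 134 bp) and is 2.03% of the wider window. It is printed because read pairs of Ptpn20 mRNA that align wholly within it would count in that window without any read on the L1. The paper required concordant alignments so as to leave out spliced transcripts, and a read of 150 bp is longer than this exon.

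Ptpn20 exon: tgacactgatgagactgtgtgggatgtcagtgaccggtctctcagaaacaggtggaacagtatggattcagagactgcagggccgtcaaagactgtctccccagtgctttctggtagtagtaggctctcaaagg

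The 250 bases before the RefSeq start of both host genes are printed for the same reason, since transcription from these starts would cross the L1 in its sense orientation. Both are from RefSeq (GRCm38.p6), 5' to 3' on the gene's strand. The first is chr14:33589020-33589269 (plus strand), whose start is 25679 bp before the L1. The second is chr16:12834943-12835192 (minus strand), whose start is 81681 bp before the L1. GENCODE has both genes reach further upstream, 4930414F18Rik to position 12945935 and Ptpn20 to position 33589207. The latter lies within the printed bases of Ptpn20, so the last of these are inside the gene by GENCODE. Capitals mark matches to CCAAT, searched on both strands.

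Ptpn20 promoter: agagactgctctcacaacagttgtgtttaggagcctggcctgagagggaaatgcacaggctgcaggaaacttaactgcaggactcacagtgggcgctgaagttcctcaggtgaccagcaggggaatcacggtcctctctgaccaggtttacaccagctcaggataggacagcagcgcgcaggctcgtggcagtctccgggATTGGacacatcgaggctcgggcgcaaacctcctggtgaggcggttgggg

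4930414F18Rik promoter: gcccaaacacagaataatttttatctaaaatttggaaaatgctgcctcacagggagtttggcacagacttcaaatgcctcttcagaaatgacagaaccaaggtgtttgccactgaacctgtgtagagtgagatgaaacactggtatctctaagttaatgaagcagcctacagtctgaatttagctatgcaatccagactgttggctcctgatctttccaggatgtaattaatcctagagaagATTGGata

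Each held 1 match to CCAAT, on the reverse strand, 50 bases before the RefSeq start of Ptpn20 and 8 bases before that of 4930414F18Rik. By GENCODE both matches lie after the start of the gene. CCAAT is in 33.8% of the 32851 RefSeq promoters of this length. Neither window held TATAAA (12.4% of promoters), TGACGTCA (1.55%) or CACGTG (6.02%) on either strand. The GC content was 58.8% for Ptpn20 and 40.4% for 4930414F18Rik.

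**Figure D1:**
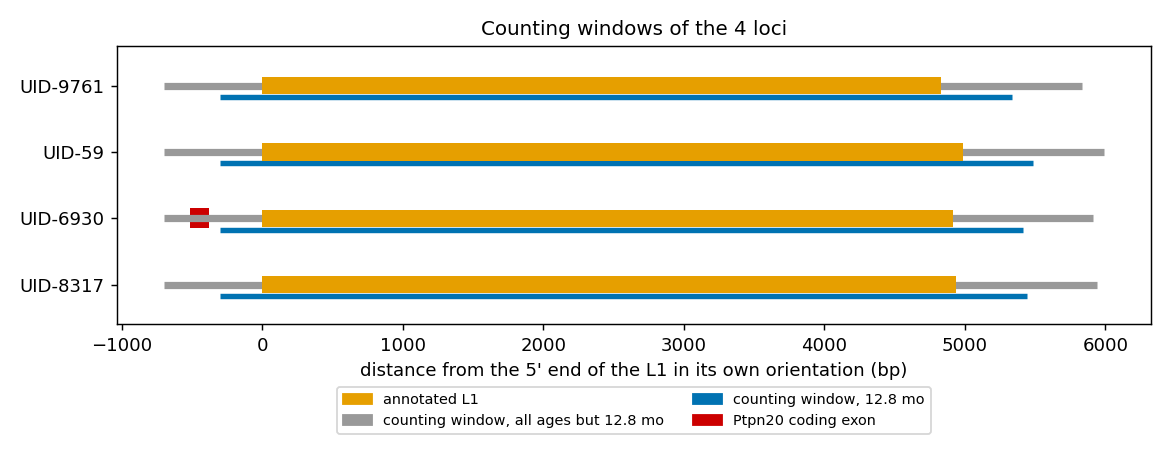
Annotated L1 (orange), the wide counting window (grey) and the window of 12.8 mo (blue) of each locus, by distance in bp from the 5' end of the annotated L1. The exon of Ptpn20 (red, 134 bp) lies in the wide window of UID-6930 and outside its window of 12.8 mo.

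The libraries held 8.45 M to 51.4 M mapped reads (testes 22.6 M to 43.4 M) and 9567 to 109959 reads on annotated L1 loci. A count of 3 reads, used here as the floor, corresponds to 0.0584 to 0.355 on the reads-per-million scale (RPM, reads per M mapped reads). Both mates of a pair were counted, so that 2 reads can be 1 fragment. The testis of mouse 900 (12.8 mo) stood apart, with 1681 loci with reads against 2376 to 3456 in the other testes, and means and folds that include it are also given without it, a choice made after seeing the data.

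In the 7.6 mo testes on which the loci were chosen, UID-9761 held 1233, 703 and 462 reads in mice 1209, 1303 and 1305. UID-59 held 962, 948 and 425 reads, UID-6930 886, 697 and 424, and UID-8317 561, 465 and 334. In all 4 loci the library of mouse 1305 was the lowest. Reads covered 96.9 to 98.8% of the window of UID-9761, 94.8 to 99.1% of UID-59, 93.2 to 95.9% of UID-6930 and 91.0 to 95.9% of UID-8317. Of 456 loci off the curated testis list with a mean of over 10 reads in these testes, 5 were covered to at least 90% in every one of them. The 4 loci ranked 1 to 4 of these by mean reads (with coverage of at least 80%, 8 loci qualified and UID-8317 ranked 5), from 799.3 reads for UID-9761 to 453.3 for UID-8317. The fifth, UID-1308 (chr9:8143686-8148561), had a mean of 421 reads and coverage of 93.5 to 98.1%. For comparison, UID-5948, with the highest mean on the curated list, held 494.7 reads on average over 85.6 to 87.0% of its window. The next on the list were UID-15218 with 367.3 reads on only 3.97 to 4.25% of its window and UID-4732 with 286.7 reads on 77.8 to 88.2%.

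In the 9 testes of other ages, each of the 4 loci held at least 124 reads in every library. Their means there were 21.2, 15, 10.8 and 10.2 RPM, against 23.3, 22.9, 19.7 and 13.5 RPM in the 7.6 mo testes used for the choice, which for UID-59 and UID-6930 are the larger gaps. UID-9761, the most abundant, held 439, 1019 and 489 reads in mice 1071, 1110 and 1111 (1.9-3.6 mo), 924, 348 and 1107 in mice 899, 900 and 901 (12.8 mo), and 600, 587 and 753 in mice 829, 830 and 831 (22.3 mo). Mouse 1110 was high within the young group and mouse 900 low within the 12.8 mo group, while the old testes lay close together. UID-59 held 460, 696 and 534 reads in the young testes, 603, 208 and 496 at 12.8 mo and 485, 520 and 562 at 22.3 mo. UID-6930 held 307, 440 and 352, then 414, 138 and 446, then 395, 405 and 362. UID-8317, the lowest of them, held 255, 483 and 260, then 433, 124 and 432, then 345, 353 and 381. Mouse 900 was thus the lowest of the 9 testes for each locus in reads. In RPM it was the lowest for UID-59, UID-6930 and UID-8317, whereas for UID-9761 the testes of mice 1071 (10.1 RPM) and 1111 (15.1 RPM) lay below it (15.4 RPM).

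**Figure D2:**
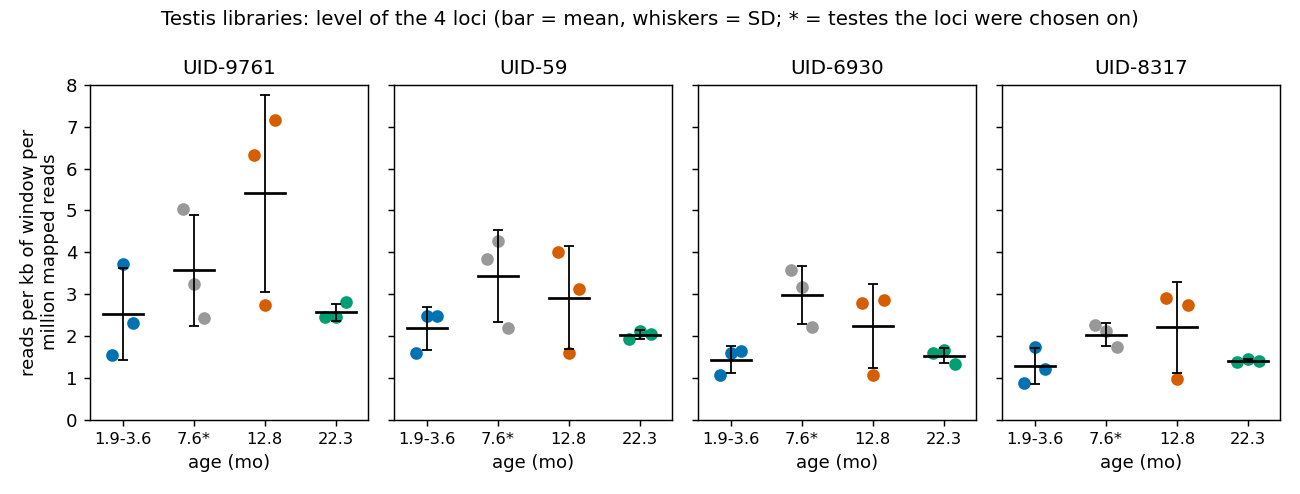
Reads per kb of counting window per M mapped reads (RPKM) in each testis, by age in mo, with the mean (bar) and SD (whiskers) of 3 mice. The testes of 22.3 mo lie between 2.44 and 2.80 for UID-9761, while those of 12.8 mo spread from 2.74 to 7.17.

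Scaled per kb of window and per M mapped reads (RPKM, which allows loci to be compared), the mean levels in these 9 testes were 3.50 ± 1.94 (SD) for UID-9761, 2.37 ± 0.782 for UID-59, 1.73 ± 0.658 for UID-6930 and 1.63 ± 0.727 for UID-8317. Without mouse 900, they were 3.60 ± 2.05, 2.47 ± 0.775, 1.82 ± 0.651 and 1.71 ± 0.729 (n = 8). Ratios taken within a library varied less than the levels. UID-9761 was above UID-6930 and UID-8317 in 9 of 9 testes, by 1.41 to 2.56 times and by 1.69 to 2.86 times. UID-59 was likewise above UID-6930 (1.10 to 1.56 times) and UID-8317 (1.14 to 2.04 times) in 9 of 9. UID-9761 and UID-59 did not keep one order, with UID-9761 higher in 7 of 9 testes (ratio 0.937 to 2.29), and neither did UID-6930 and UID-8317, with UID-6930 higher in 6 of 9 (0.915 to 1.36). Of the reads on the 4 loci in a library, UID-9761 took 29.9 to 44.6%, UID-59 19.99 to 32.7%, UID-6930 16.7 to 21.7% and UID-8317 15.2 to 18.9%. The 4 loci together made up 1.38 to 2.94% of all L1 reads in these testes, the lowest share in mouse 900 and 2.14% or more in the others. At 12.8 mo this share is not on the same footing, because the windows of elements with intact reading frames are wider in those files.

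Read coverage in the testes not used for the choice was also near complete. Over the 9 testes it averaged 97.3% ± 2.47 (SD) for UID-9761, 93.5% ± 7.95 for UID-59, 89.4% ± 13.4 for UID-6930 and 87.6% ± 13.1 for UID-8317. Among the 235 loci with at least 10 reads in each of the 9 testes, these means ranked 1, 2, 4 and 6, and the median locus was covered to 36.5%. The testis of mouse 900 had the lowest coverage of every locus, with 92.2%, 73.7%, 54.6% and 53.8%. Without it, the lowest values were 95.1%, 90.3%, 87.1% and 85.4%, and the means 98%, 96%, 93.8% and 91.9%. Coverage rose with the level in many of these loci, but not in all. UID-13571, UID-6793, UID-3342 and UID-16508, at 422, 349, 267 and 53.8 RPM, were covered to only 9.95%, 5.79%, 7.96% and 13.7%. The position of the 4 loci was close to that of some others at their level. Of the 4 other loci whose mean lay between 10.2 and 21.2 RPM, the range of the 4 loci, UID-10121, UID-2036 and the listed UID-5948 were covered to 90.2%, 87.4% and 86.9%, and the listed UID-15218 to 4.61%. UID-10121, UID-2036 and the loci of high level and low coverage were singled out after their values were seen.

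**Figure D3:**
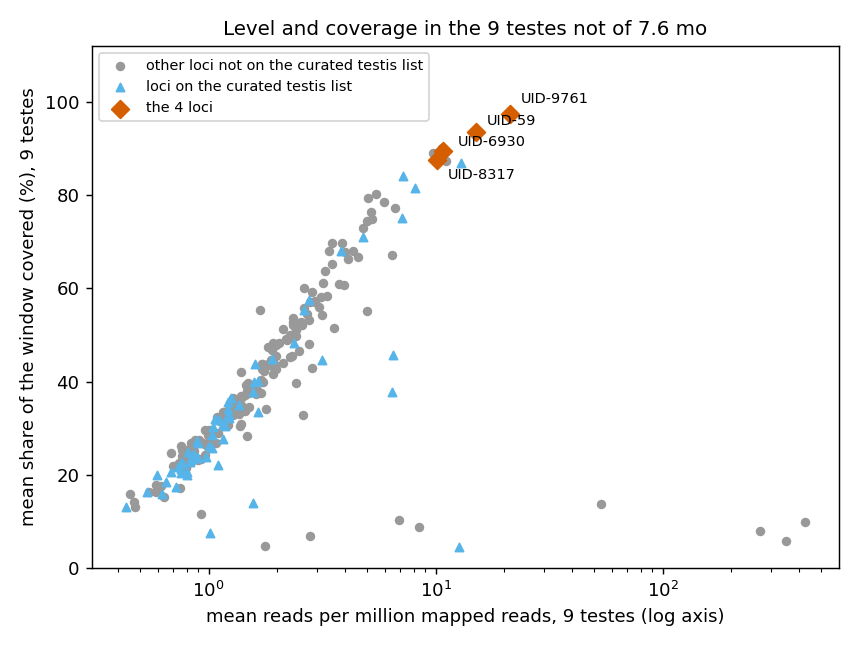
Mean share of the counting window covered by reads (%) against mean reads per M mapped reads (log axis) in the 9 testes not of 7.6 mo, for 235 loci with at least 10 reads in each. The 4 loci (diamonds) lie at 87.6 to 97.3% coverage, at the upper end of the band in which coverage rises with level. Some loci lie far below this band, such as UID-13571 with 9.95% at 422 RPM. Triangles are 61 loci of the curated testis list.

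The uncovered bases of a window put a lower limit on how much of its flanks was covered, since 110 uncovered bases, as for UID-9761 in mouse 1071, leave at least 590 of the 700 upstream bases with reads even if they all lie there. For UID-9761, this limit was above 0 in 8 of the 9 testes, and in mice 899 and 901 no base of the window was uncovered, so that the whole upstream flank of 300 bp and downstream flank of 500 bp held reads. For UID-59, UID-6930 and UID-8317 the upstream limit was above 0 in 6, 6 and 4 of the 9. At 12.8 mo it was above 0 for these loci only for UID-6930 in mouse 901, with 34 bases. In the 6 wide windows of young and old mice, reads covered at least 380 to 592 of the 700 upstream bases of UID-9761 and at least 419 to 626 of those of UID-59. The limit was above 0 in 5 of the 6 for UID-6930, up to 485 bases, with no limit in mouse 830. It was above 0 in 4 of the 6 for UID-8317, up to 460 bases, and gave no limit in mice 1071 and 1111. Among loci with over 10 reads in each of these 6 testes, 4 of 243 off the curated list (1.65%) had fewer than 700 uncovered bases in every one of them, UID-9761 and UID-59 included, and 0 of 89 on it. UID-9761 and UID-59 were chosen as covered and unlisted, so these counts do not compare listed with unlisted loci. Median coverage was 22.8% off the list and 19.4% on it. The fraction of covered bases does not give their position, so reads over the flank could be counted only through the limit above. Whether the upstream bases lie outside the element or in its own 5' end was not tested, and neither was where the transcripts start.

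The first question of the design is how the organs differ. The 4 loci were nearly without reads outside the testes. UID-8317 had 0 reads in all 56 other libraries. UID-9761 had 2 reads in each of 3 of them (1 female lung and 2 livers) and 0 in the rest. UID-59 had reads in 14 of 56 libraries and at least 10 in 2, both brains of 12.8 mo. UID-6930 had reads in 29 of 56 and at least 10 in 8, which were 5 ovaries and 3 female lungs. Such absence elsewhere was frequent among testis loci. Of the 235 loci above, 53.6% had at most 3 reads in every other library, 70.5% of the 61 listed ones and 47.7% of the 174 unlisted ones.

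**Figure D4:**
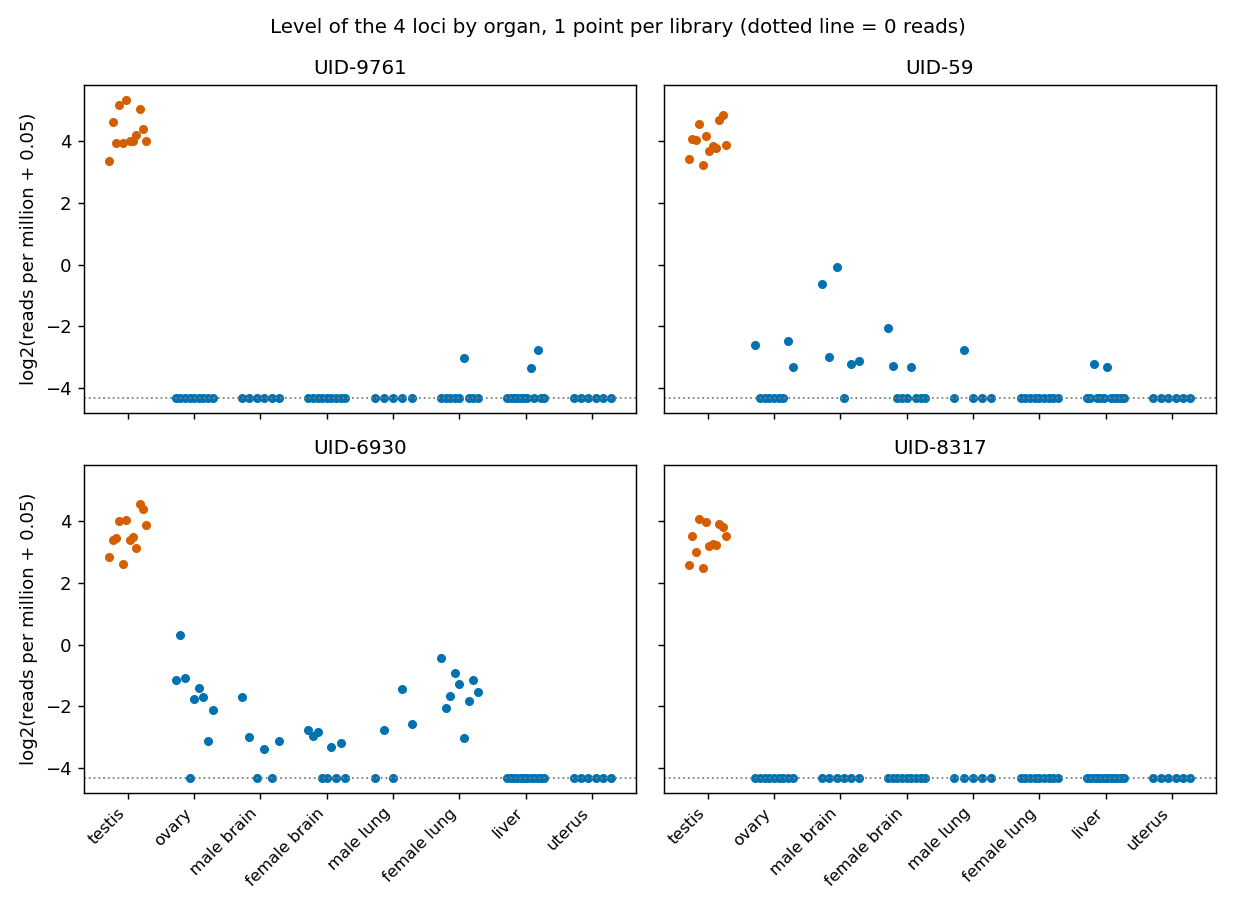
log2(RPM + 0.05) of each locus in every mouse library by organ, with 1 point per library and the dotted line at 0 reads. All 12 testes lie above all 56 other libraries for each of the 4 loci, and UID-6930 lies above 0 reads in 29 of these 56, 8 ovaries and 9 female lungs included.

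In livers of 1.9-3.6, 12.8 and 22.3 mo, 9 libraries matched in age to the 9 testes, all 4 loci were lower than in testes and the groups did not overlap. UID-9761 was at 21.2 ± 10.3 RPM in testes (n = 9) and had 2 reads in 1 of the 9 livers, a ratio of 2954 over the summed reads (95% Poisson interval 818 to 24390, counting error only). UID-59 was at 15 ± 4.21 RPM in testes and 0.0119 ± 0.0237 in livers, which held 4 reads in all and at most 2 each, under the floor. The ratio over the summed reads was 1076 (420 to 3949). UID-6930 (10.8 ± 3.48 RPM in testes) and UID-8317 (10.2 ± 3.91) had no read in any liver and were at least 101-fold and at least 95.5-fold higher in testes, against the floor of 3 reads per library. In edgeR's quasi-likelihood test, with p-values adjusted over 264 loci by Benjamini-Hochberg, adjusted p was 9.2e-16 for UID-9761, 3.57e-15 for UID-59, 6.93e-13 for UID-6930 and 1.26e-12 for UID-8317. The 4 loci entered the test through their testis reads alone, and 90.2% of the loci tested were called higher in testes (82.6% without overlap), so 4 of 4 is near the background and the p-values support nothing about the 4 loci in particular. Without mouse 900, the ratios were 3010 for UID-9761 and 1108 for UID-59, and the bounds 107-fold for UID-6930 and 101-fold for UID-8317. An exact permutation test of log2(RPM + 0.05), 1 locus at a time, gave p = 4.11e-05 for each, the smallest it can give. Mapped reads of the livers of 1.9-3.6 and 12.8 mo were recovered from 1 or 2 loci each and are less certain than those of the testes.

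In brains of 12.8 mo, UID-9761 and UID-8317 had no reads, while UID-59 and UID-6930 had some. UID-59 held 14, 2 and 20 reads in the brains of mice 899, 900 and 901, or 0.598, 0.0764 and 0.890 RPM. The 14 and 20 reads lay on only 343 and 499 bases of the window. UID-6930 held 6, 2 and 0 reads in the same brains. The testes of the same mice were higher by a ratio of means of 32.3 for UID-59 (16.9 ± 7.10 against 0.521 ± 0.412 RPM, n = 3 each) and of 115 for UID-6930 (12.8 ± 5.78 against 0.111 ± 0.131 RPM), and at least 243-fold for UID-9761 and at least 101-fold for UID-8317. Without mouse 900, the ratios were 39.6 and 145 and the bounds 303-fold and 129-fold. With edgeR, log2 fold changes were 5.02 ± 0.80 (SE, adjusted p = 0.000356) for UID-59 and 6.78 ± 0.94 (adjusted p = 0.000251) for UID-6930, and adjusted p was 6.36e-05 for UID-9761 and 0.000154 for UID-8317. All 4 loci entered this test through their testis reads alone (UID-59 had at least 10 reads in 2 of the 3 brains), so the p-values carry the same limit as against liver. Of the 506 loci tested, 62.3% were called higher in testes and 62.5% did not overlap. In the order of log2 fold changes over these loci, UID-9761 and UID-8317 were 1 and 3, while UID-6930 and UID-59 were 211 and 251.

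In lungs of 12.8 mo, UID-59 and UID-6930 had 2 reads each, both in the lung of mouse 900, and the other 2 loci none. The testes were at least 222-fold higher for UID-9761 and at least 92.1-fold for UID-8317. The ratio over the summed reads was 566 for UID-59 (95% Poisson interval 157 to 4672) and 432 for UID-6930 (120 to 3568). Adjusted p by edgeR was 4.07e-27 for UID-9761, 2.01e-18 for UID-59, 8.26e-16 for UID-6930 and 1.42e-17 for UID-8317, with 75.7% of 445 loci called higher in testes and 73.7% without overlap. Here too the 4 loci passed the filter through their testis reads alone, and the p-values carry the same limit. Without mouse 900, the ratios were 677 for UID-59 and 530 for UID-6930, and the bounds 277-fold for UID-9761 and 118-fold for UID-8317. Mapped reads of these lungs are less certain than those of the testes. In this comparison and that with brain, 3 against 3 libraries allow no p below 0.1 in an exact permutation test, which every locus reached.

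Against the gonads of female mice, the loci again had more reads in testes, and by amounts that differed between them. UID-9761 and UID-8317 had no read in any of 9 ovaries and were at least 199-fold and at least 95.3-fold higher in the 9 testes. UID-59 had reads in 3 ovaries, 10 in all, and was at 15 ± 4.21 RPM in testes and 0.0328 ± 0.0536 in ovaries, with a ratio over the summed reads of 425 (95% Poisson interval 231 to 887). UID-6930 had reads in 8 of 9 ovaries and was at 10.8 ± 3.48 against 0.342 ± 0.345 RPM, a ratio of 31.6. The groups did not overlap for any of the 4, and adjusted p by edgeR was 1.3e-10 for UID-9761 and UID-59, 2.78e-09 for UID-6930 and 1.62e-10 for UID-8317. The 4 loci again passed the filter through testis reads alone, and the p-values carry the same limit. Of 297 loci tested, 75.4% were called higher in testes and 69% did not overlap. Without mouse 900, the bounds were 206-fold for UID-9761 and 101-fold for UID-8317, and the ratios of means 479 for UID-59 and 33.3 for UID-6930. Calls split into 224 higher and 36 lower, and into 209 and 68 by share of L1 reads. Organ, sex and age differ together in this comparison and cannot be told apart. The comparisons with liver, brain, lung and ovary share testes, so they are not independent of each other.

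UID-6930 had reads in most ovaries (8 of 9) and in 9 of 9 female lungs, while the other 3 loci had reads in at most 3 libraries of any female organ. In ovaries it held 10, 13 and 0 reads in mice 1540, 1534 and 1535 (2.2-3.2 mo), 12, 8, 2 and 7 in mice 1324, 1325, 1337 and 1338 (8-8.7 mo), and 14 and 38 in mice 1004 and 1006 (16.5 mo). The ovary of mouse 1006 was the highest, with 1.18 RPM and 42.1% of the window covered, against at most 0.420 RPM and 21.02% in the others. Female lungs held 17, 7 and 4 reads in mice 1540, 1534 and 1535, 2, 6, 11 and 8 in mice 1324, 1325, 1337 and 1338, and 16 and 2 in mice 1004 and 1006, with 0.197 to 17.4% of the window covered. Female brains held 0 to 4 reads, and the 6 uteri and 12 livers held none. The mean over female lungs, 0.332 ± 0.181 RPM, lay next to that of ovaries, and the ranges overlapped (exact permutation test, two-sided, p = 0.603). By the same exact permutation test ovaries differed from female brains (0.0417 ± 0.0419 RPM, p = 0.00337) and from uteri (p = 0.0026), in both cases unadjusted and among 32 such tests run for the 4 loci and 8 comparisons. The test took no account of age, nor of the organs coming from the same mice. Only 5 ovaries had at least 10 reads, so none of the 4 loci passed the filter of the edgeR test between female organs, in which 34.1% of 85 loci were called higher in ovary than in brain, 27.5% of 80 than in lung and 33.6% of 128 than in uterus. Ovaries lay above the other organ without overlap for 12.9%, 3.75% and 8.59% of these loci, and for none of the 4. Calls split into 29 higher and 21 lower against brain, and into 16 and 39 by share of L1 reads. Against uterus they split into 43 and 11, and into 62 and 4 by share of L1 reads or 37 and 21 by TMM. Without the filter, edgeR called UID-6930 higher in ovary than in brain (log2 fold change 2.95 ± 0.74, adjusted p = 0.00122 over 4137 loci) and than in uterus (adjusted p = 0.000253 over 3096 loci; no read in uterus), and not than in lung (-0.12 ± 0.60, adjusted p = 0.88). The windows of all female libraries include the Ptpn20 exon. How many of these reads lie on the exon was not tested, but 38 reads on 2787 bases, and 12 reads on 1370 bases in mouse 1324, reached beyond its 134 bp.

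The order of organ means in RPM for UID-6930 was testis (13.03, n = 12), ovary (0.342), female lung (0.332), male lung (0.107), male brain (0.0738), female brain (0.0417), and liver and uterus (0). For UID-59 it was testis (16.98), male brain (0.281), female brain (0.0329), ovary (0.0328), male lung (0.0196), liver (0.00896), and female lung and uterus (0). Beyond testis, the ranges of neighbours in each order overlapped. For UID-9761, liver (0.0119) and female lung (0.00797) followed testis (21.8), each far below the floor of 3 reads, and for UID-8317 (10.99 in testis) no second organ could be named. These testis means include the 7.6 mo testes used for the choice. In the 9 other testes they were 10.8 RPM for UID-6930, 15 for UID-59, 21.2 for UID-9761 and 10.2 for UID-8317.

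The next question is age. Between testes of 22.3 mo and of 1.9-3.6 mo, no difference was detected for any of the 4 loci, and the groups overlapped for each, where 5.32% of loci tested lay higher in old testes without overlap. UID-9761 was at 16.8 ± 1.34 RPM in old and 16.5 ± 7.18 in young testes (n = 3 each), UID-59 at 13.6 ± 0.658 and 14.6 ± 3.43, UID-6930 at 10.1 ± 1.18 and 9.48 ± 2.09, and UID-8317 at 9.36 ± 0.249 and 8.48 ± 2.84. The log2 fold changes by edgeR were 0.02 (95% interval -0.58 to 0.63), -0.10 (-0.65 to 0.45), 0.09 (-0.48 to 0.67) and 0.14 (-0.46 to 0.75), each with adjusted p = 0.993. Of the 771 loci tested, 0% were called by edgeR, 28 had an unadjusted p under the same threshold, and DESeq2 called 1, which was none of the 4. The widest limits leave room for a level 0.75 higher or 0.65 lower on the log2 scale.

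At 12.8 mo, the testes of mice 899 and 901 were above all 6 young and old testes for each of the 4 loci in RPKM, and that of mouse 900 was not. For UID-9761, the values of mice 899, 900 and 901 were 6.32, 2.74 and 7.17 RPKM, against 1.55 to 3.72 in young and old testes. For UID-6930 they were 2.79, 1.07 and 2.85 RPKM, counted without the Ptpn20 exon, against 1.07 to 1.67 in the windows that include it. In the same libraries, reads on all 14075 loci without intact reading frames, whose windows were narrowed as those of the 4 loci were, came to 1912 to 2688 per M mapped reads against 1530 to 2199. These totals are not divided by window length, so they are not on the scale of the RPKM values above. Windows of the 2788 intact loci were wider at 12.8 mo than at other ages, so reads on all L1 loci together are not compared. The windows differ between these files, so age and window cannot be told apart and no test was made.

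Loci with a like pattern over the 24 groups of organ, sex and age were numerous. Of 1460 other loci with at least 10 reads in at least 3 libraries, 731 had a Pearson r of at least 0.9 with UID-9761 in mean log2(RPM + 0.05), 704 with UID-59, 732 with UID-8317 and 376 with UID-6930. The closest were UID-8818, UID-8469 and UID-11410 to UID-9761 (r = 0.999 each), all on the curated testis list, and UID-6845, UID-1082 and UID-6844 to UID-59 (r = 0.991, 0.991 and 0.990), none of them listed. For UID-6930 they were UID-9278, UID-5187 and UID-13836 (r = 0.957, 0.95 and 0.949), none of them listed. For UID-8317 they were the listed UID-5559 and UID-1542 and the unlisted UID-628, each with r of 1 at 3 digits. These values describe 24 points of which 4 are testes, and depth is shared by all loci of a library.

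By level in the 9 testes not of 7.6 mo, UID-9761, UID-59, UID-6930 and UID-8317 ranked 8, 10, 15 and 17 of 17019 loci. None of the 469 loci on the curated testis list was above UID-9761 or UID-59, and 2 were above UID-6930 and UID-8317. The median listed locus was at 0.26 RPM, against 21.2, 15, 10.8 and 10.2 RPM for the 4 loci.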

How the data were processed

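Reads were aligned by the authors to mm10 with Bowtie 0.12.8 (unique alignments, up to 3 mismatches, inserts up to 600 bp), cleared of duplicates, split by strand and counted over L1 windows with BEDTools 2.27.1. The authors deposited raw counts for each locus, not normalized. The deposited fraction of each window covered by reads was used to describe loci. Reads were 100 bp (Illumina) or 150 bp (DNBseq), and which libraries had which is not given in the sources used here. Each library lists 17450 entries for 17019 different loci, and loci were matched by coordinates, since at 12.8 mo names are not unique. The 12 rat libraries were not used.

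Mapped reads per library were recovered as the value on which most curated loci coincide (within 0.1%) when reads are divided by the study's tabulated FPKM. For the mice of 22.3 mo, table columns were joined to libraries by their counts, since the animal numbers did not match them, a choice made after seeing the data. In the lungs of 12.8 mo few of the loci coincide, and in the brain of mouse 1325 8 of 15 do. Livers of 1.9-3.6 and 12.8 mo had only 1 to 3 such loci with reads, of which 1 or 2 coincide. Where only 1 coincides, as for the livers of mice 1110 and 900, the value has no check. RPM is reads per M mapped reads, and RPKM divides RPM by the window in kb.

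Comparisons used edgeR 4.0.16 in R 4.3.3 (quasi-likelihood test on counts, mapped reads as library size, loci kept with 10 reads or more in n libraries, n being the size of the smaller group, age group as a covariate with more than 1 age, Benjamini-Hochberg adjustment, threshold 0.05). The SE is the log2 fold change over the root of F. Alternatives were DESeq2 1.42.0, TMM, the share of L1 reads, no filter, leaving out libraries or ages, exact permutation tests and the animal as a block. The permutation tests took no account of age group or animal. Libraries with 1 number were taken as 1 animal, which pairs the organs. At 22.3 mo this is uncertain, since the testes and livers numbered 829 and 830 matched different animal numbers in the study's table. The block against liver rests on this pairing too. The correlation of deviations between libraries of 1 number was 0.098 on average for testis and liver and 0.115 for ovary and brain. On simulated counts for testes of 22.3 against 1.9-3.6 mo (771 loci), the test found 79.8% of changes of 1.5 and 100% of changes of 3 on the log2 scale. Replicates are separate mice. Poisson intervals and floors cover counting error only, while the SE and intervals of edgeR also include the spread between mice.

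Annotation is GENCODE M21 (GRCm38), and 1 neighbouring gene is not reported here. The 4 loci and the lists were chosen with earlier results of these data known. Other loci named are those holding or next to them, the 3 highest on the curated testis list, the next of the unlisted covered loci, annotated L1 loci within 20 kb, and the 3 most alike to each.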

Additional observations from a re-analysis of the deposited data

Results flagged for a closer look

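The highest value of a group of 4 libraries lay far from the other 3 (beyond Dixon's 95% limit) in 2 of 12 combinations of locus and group. Both follow from counts of 0, since reads in 1 library of 4 always pass this limit and 6 combinations without any read cannot, so the usual chance rate of about 1 in 20 groups does not apply. UID-59 had 2 reads (0.0505 RPM) in the brain of mouse 1324 and 0 in the other 3 female brains of 8-8.7 mo. UID-9761 had 2 reads (0.0718 RPM) in the lung of the same mouse and 0 in the other 3 female lungs of that age. Both are under the floor of 3 reads.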

How the results depend on the processing

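The number of the 4 loci called was 4 in testis against liver, brain, lung and ovary, and 0 between old and young testes, under every alternative fit across loci. In the main fits the 4 loci passed the filter through testis reads alone. Most loci tested with the filter were called in these organ comparisons, so 4 of 4 says nothing about the 4 loci in particular. With the animal as a replicate block it was also 4 against liver, brain and lung, and the block changed no call of the 4 loci. Loci called under the block numbered 246 of 264 tested (liver), 362 of 506 (brain) and 351 of 445 (lung). They numbered 55 of 85 (ovary against brain), 39 of 80 (ovary against lung) and 46 of 111 (ovary against uterus). Between female organs, 0 of the 4 loci passed the filter, and without it 1 was called (UID-6930) for ovary against brain and 1 for ovary against uterus. Without the filter, loci called numbered 2628 of 8102 (testis against liver), 871 of 5555 (brain), 875 of 4951 (lung) and 5046 of 8655 (ovary). They numbered 517 of 4137 (ovary against brain), 183 of 3155 (lung), 94 of 3096 (uterus) and 1 of 6662 (old against young testes). With the filter and in the same order, they numbered 252 of 264, 407 of 506, 395 of 445, 260 of 297, 50 of 85, 41 of 80, 54 of 128 and 0 of 771. DESeq2 also called 1 between old and young testes. Without the libraries of 12.8 mo, 382 of 398 loci were called against liver and 415 of 457 against ovary. Leaving out 1 library gave 459 (of 602) to 749 (of 908) loci for brain and 419 (of 516) to 724 (of 811) for lung. Leaving out the testis of mouse 900 gave the highest number of both. For age, 0 to 0 loci were called. Without the testis of mouse 900, 334 of 349 loci were called against liver and 332 of 380 against ovary. This alternative was added after seeing the data, as was joining the 22.3 mo columns by number, which left 4 and 0 calls.

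The exact permutation test called none of the 4 loci against brain and lung (p = 0.1), since it cannot pass the threshold with 3 against 3 libraries. Between old and young testes, signs turned within the spread. By share of L1 reads, the log2 fold change of UID-9761 was -0.0209. Leaving out 1 testis gave -0.235 to 0.410 for UID-9761, -0.285 to 0.0036 for UID-59, -0.0789 to 0.204 for UID-6930 and -0.0649 to 0.428 for UID-8317, the lowest of each without mouse 1071. The sign also turned for UID-9761 without mouse 831 (-0.0464) and mouse 1111 (-0.0374), and for UID-59 without mouse 1110. Scaling by share of L1 reads, which at 12.8 mo includes wider windows of intact loci, moved the median log2 fold change of all loci from 7.86 to 7.45 against liver, from 4.97 to 3.74 against brain, from 6.85 to 5.62 against ovary, from 0.31 to -0.52 for ovary against brain and from 1.04 to 1.65 for ovary against uterus. By share of L1 reads, 6 of 8 organs kept their place for UID-59 and UID-6930. With coverage of at least 0.95 in every 7.6 mo testis, 1 of the 4 loci was left, and with at least 0.8 the 4 loci ranked 1, 2, 3 and 5 of 8. The cause of these shifts was not tested.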
